A study of Mus musculus with 12 samples.

Results

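Ankrd1, Ctgf (Ccn2), Cyr61 (Ccn1), Thbs1, Tgfbi, Tgfb1, Tgfb2, Tgfb3 and Ltbp2 are 9 genes of the TGF-beta and YAP pathways that respond to wounding, out of 24468 genes with a symbol on the array. They were found by gene name among the probes that are not controls, and 1 probe was used per gene, the one with the highest mean over the 12 arrays. The genes were chosen by their log2 values on the same arrays, with fresh kidney set against cultured kidney and organoids. Values across that contrast are therefore given as a description with no test, and nothing is read from how many of the genes follow it.

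Transforming growth factor beta is secreted as a latent complex that matrix proteins hold in place, and it acts once integrins, proteases or thrombospondin set it free. The freed ligand signals through a pair of receptor kinases and Smad proteins to genes of matrix and contractile fibres. YAP and its relative TAZ are co-activators that the Hippo kinases hold out of the nucleus. On stiff matrix, or where cells spread, they enter it and act with TEAD factors on Ctgf, Cyr61 and Ankrd1. In kidney both pathways are known for stromal activation and scarring after injury.

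Organoids cultured for 7 days (day 7, n = 3 arrays) and organoids taken just after they were assembled (day 0, n = 3) had mixed genotypes. Their stromal progenitors came from E11.5 kidneys of wild-type ICR mice, and their nephron progenitors and ureteric bud were made from mouse embryonic stem cells of B6 and 129SV background. E11.5 kidney cultured for 7 days (n = 1) and fresh kidney of embryonic stages E11.5 and E13.5, then E15.5 and later E17.5, and of the day of birth, P0 (n = 1 each), came from ICR mice and were wild type. Cultured samples grew on a transwell filter with 50% Matrigel, a basement membrane extract, in DMEM/F12 medium with 10% serum, which fresh kidney and day 0 organoids had not met for those days. Serum and Matrigel thus moved together with time in culture, and their parts cannot be told apart. The labels do not say whether replicate organoids were separate cultures or whether kidneys were pooled, so a p-value here measures only the spread between arrays.

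A level below is the log2 signal of a gene's probe minus the 75th percentile of its array, so that 0 is a signal that most probes of the array do not reach. The 75th percentile lay at 126 to 138.3 signal units on the day 0 arrays and at 201 to 286.8 on the others. A probe's level cannot be set against another probe's. On mm9, the build of the array's design, the probes lie at chr7:26489877-26489936 (Tgfb1, plus strand), chr1:188449333-188449392 (Tgfb2, minus), chr12:87397804-87397863 (Tgfb3, minus), chr12:86124167-86124226 (Ltbp2, minus) and chr2:117952585-117952644 (Thbs1, plus). Those of the targets lie at chr13:56740460-56740519 (Tgfbi, plus), chr10:24318281-24318340 (Ctgf, plus), chr3:145310187-145310246 (Cyr61, minus) and chr19:36186809-36186868 (Ankrd1, minus). Slide 1 held every kidney array with replicates 1 and 2 of the day 0 organoids, and slide 2 held their replicate 3 with the 3 day 7 arrays. Of the 9 genes, 7 were well above background on all 12 arrays. Ankrd1 was below background in the fresh E11.5 and E13.5 kidney and on all 3 day 0 arrays, and Ltbp2 was below it on day 0 replicates 1 and 2. In whole tissue, fewer cells of a type and less RNA per cell cannot be told apart.

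Promoters of 2 of the YAP targets are shown because they carry the letters GGAATG, the core bound by TEAD factors, on one of the strands (capitals below). They are the 250 bases before the start site from RefSeq on GRCm38.p6, chr19:36119845-36120094 for Ankrd1 and chr3:145649986-145650235 for Cyr61, both on the minus strand.
Ankrd1: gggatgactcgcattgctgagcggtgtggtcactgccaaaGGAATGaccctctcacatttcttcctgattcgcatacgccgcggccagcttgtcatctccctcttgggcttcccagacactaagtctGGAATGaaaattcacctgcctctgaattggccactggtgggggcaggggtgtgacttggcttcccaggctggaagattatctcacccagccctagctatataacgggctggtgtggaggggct
Cyr61: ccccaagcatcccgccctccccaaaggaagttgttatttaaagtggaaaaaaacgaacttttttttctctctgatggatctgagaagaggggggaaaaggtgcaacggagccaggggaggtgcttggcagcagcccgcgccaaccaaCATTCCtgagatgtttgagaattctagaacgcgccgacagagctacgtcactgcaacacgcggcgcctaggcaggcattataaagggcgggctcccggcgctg
Ankrd1 held GGAATG at 2 places on the printed strand, and Cyr61 held it once on the other strand, where it reads CATTCC. Of 32851 promoter windows of this length, 12.6% held GGAATG on either strand and 1.02% held it 2 or more times. Among the 6 of 9 genes with a RefSeq promoter entry, the windows of Tgfbi, Tgfb1, Tgfb2 and Ltbp2 had no match to these letters. The Smad letters CAGAC, searched on both strands, were found 2 times each in Ankrd1, Tgfbi, Tgfb2 and Ltbp2, and 42.2% of all windows held them at least once, with 11.7% holding them 2 or more times. No window of the 6 held the AP-1 letters TGANTCA (6.75% of all windows) or the CArG box of serum response factor (1.47%). A match of letters is a description, not a binding site.

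**Figure D1:**
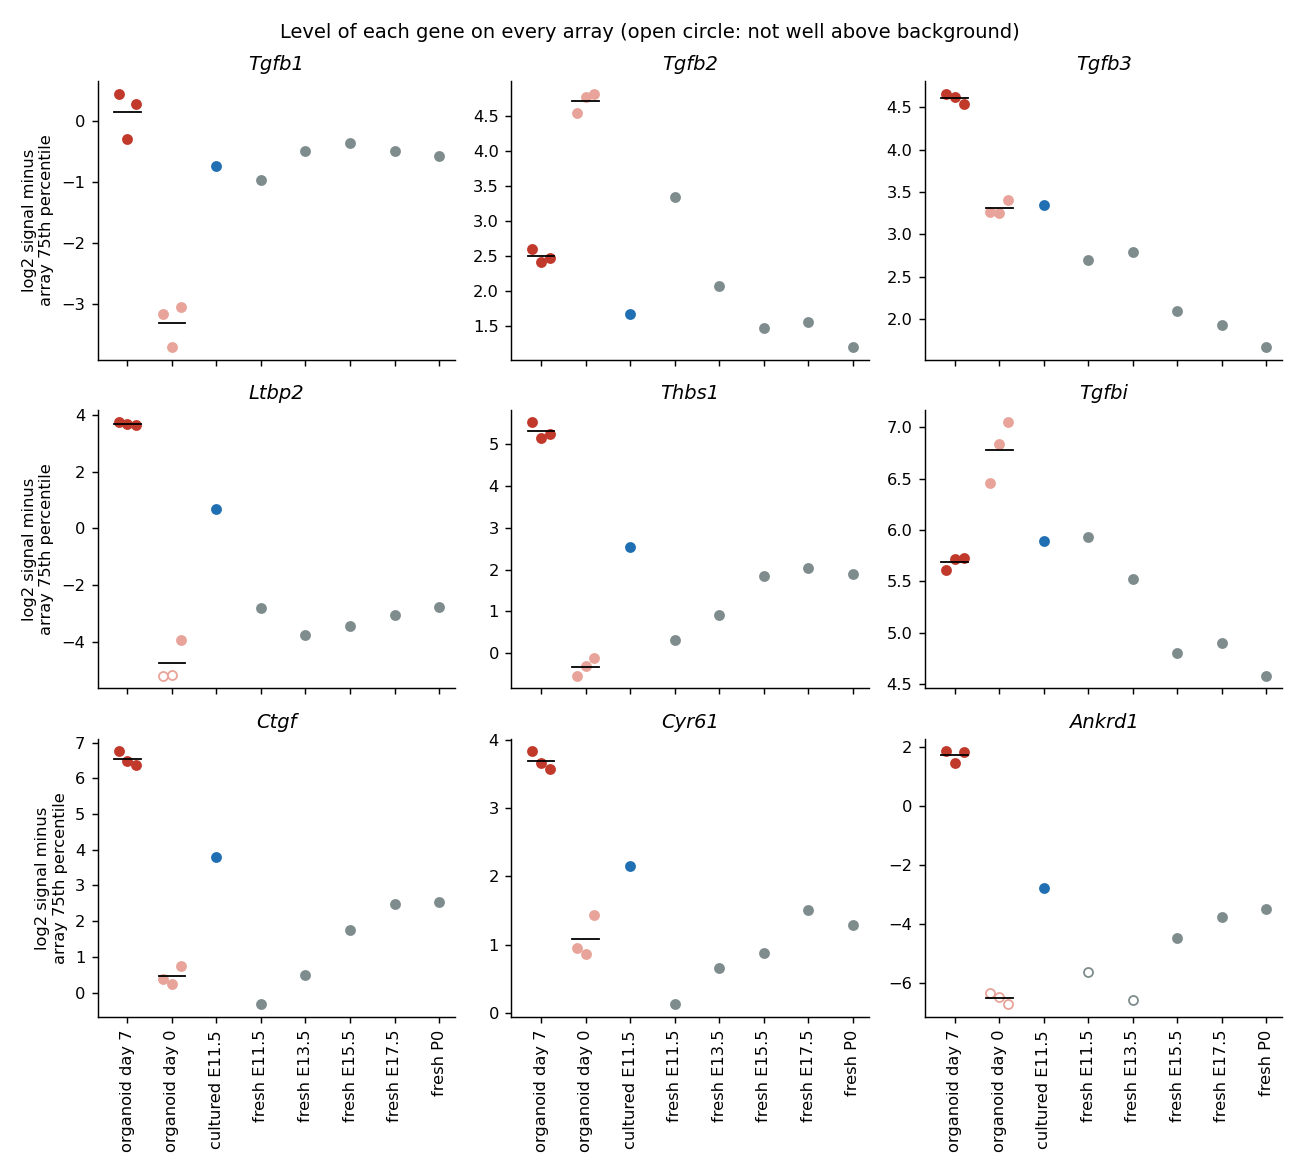
Level of the 9 genes on every array, as log2 signal minus the array's 75th percentile, with day 7 organoids, day 0 organoids, cultured kidney and fresh kidney by stage from left to right. Each circle is 1 array, a line is the mean of 3 arrays, and an open circle is not well above background, as for Ankrd1 on all 3 day 0 arrays. Each panel has its own vertical scale.

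The 3 ligands took different courses in culture. Tgfb1 encodes the ligand best known for driving fibrosis. Its level was 0.45, -0.30 and 0.29 in day 7 organoids, against -3.17, -3.70 and -3.05 in day 0 organoids. All day 7 arrays lay above all day 0 arrays, by 3.46 ± 0.25 on average (difference ± standard error of the fit), or 11-fold. With normexp background correction the difference for Tgfb1 was 1.54. In kidney its level was -0.74 after culture and -0.96 in fresh E11.5, and the 5 fresh stages stayed between -0.96 and -0.36. The cultured kidney therefore lay within the fresh range. Day 0 organoids stood apart, 2.35 ± 0.36 below fresh E11.5 kidney, and the other 7 groups followed each other in order at gaps within 2 SD of the organoid replicates. The day 0 value minus that of fresh E11.5 kidney was -0.69 with normexp correction.

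Tgfb2, a ligand that developing kidney needs, ran the other way. It was 2.60, 2.42 and 2.48 in day 7 organoids, against 4.54, 4.77 and 4.82 in day 0 organoids. Day 7 organoids were lower on all arrays, by -2.21 ± 0.10 (4.62-fold), and a second probe of the gene gave -2.58. In kidney it was 1.67 after culture, against 3.34 in fresh E11.5 kidney, a difference of -1.67. Its highest levels were thus in day 0 organoids and in the youngest fresh kidney.

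Tgfb3, the remaining ligand, was highest in day 7 organoids. It was 4.66, 4.63 and 4.54 there, against 3.26, 3.25 and 3.40 in day 0 organoids, a difference of 1.30 ± 0.08. Cultured kidney had 3.35, against 2.70 in fresh E11.5 kidney, and exceeded every fresh stage (1.67 to 2.79). Cultured kidney and day 0 organoids lay next to each other, within 2 SD of the organoid replicates.

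Ltbp2 and Thbs1 stand around the ligands in the matrix. Ltbp2 belongs by sequence to the latent TGF-beta binding proteins and is a component of elastic microfibrils. It was 3.74, 3.67 and 3.65 in day 7 organoids, against -5.19, -5.17 and -3.92 in day 0 organoids, of which only -3.92 was above background. With the 2 day 0 arrays below background set to the lowest signal well above it on the same array, day 7 organoids were 7.89 higher. The fitted difference was 8.44 ± 0.34, but 5.12 with normexp background correction. In kidney it was 0.70 after culture and -2.80 before, a difference of 3.50. The cultured kidney lay 3.46 above the highest fresh stage, the widest such gap of the 9 genes. The fresh stages and day 0 organoids differed from their neighbours in order by no more than 2 SD. That SD came mostly from the day 0 arrays (0.72, against 0.05 at day 7), 2 of them below background. It therefore cannot show that these groups were alike.

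Thbs1 encodes thrombospondin 1, which can release TGF-beta from its latent complex. It was 5.53, 5.17 and 5.24 in day 7 organoids, against -0.54, -0.32 and -0.11 in day 0 organoids. These groups were 5.64 ± 0.15 apart (49.7-fold). In kidney it was 2.53 after culture, against 0.32 in fresh E11.5 and 1.91 at P0. Cultured kidney lay only 0.49 above the highest fresh stage, E17.5, whereas day 7 organoids lay 3.27 above it on average.

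Of the genes that the pathways switch on, Ctgf and Cyr61 encode secreted matricellular proteins of the CCN family. Ctgf was 6.76, 6.50 and 6.38 in day 7 organoids, against 0.37, 0.24 and 0.75 in day 0 organoids. Day 7 organoids were 6.09 ± 0.16 higher (68.3-fold). In kidney it was 3.79 after culture, against -0.33 in fresh E11.5 kidney, a difference of 4.12. Cyr61 was 3.84, 3.67 and 3.58 in day 7 organoids, against 0.96, 0.86 and 1.43 in day 0 organoids, 2.62 ± 0.16 apart. Its level in kidney was 2.15 after culture, against 0.12 in fresh E11.5 kidney. For both genes day 7 organoids came first in order, cultured kidney second and all fresh kidneys below them. Neighbours among E17.5, P0, day 0 organoids and E15.5 did not differ beyond 2 SD for Cyr61.

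Ankrd1 encodes an ankyrin repeat protein of heart muscle that is also a standard readout of YAP. It was 1.86, 1.47 and 1.84 in day 7 organoids, against -6.36, -6.49 and -6.74 in day 0 organoids, where no array was above background. Day 7 organoids were at least 72-fold higher, a bound taken from the lowest signal well above background on each day 0 array. The fitted difference was 8.25 ± 0.15, but 3.32 with normexp background correction. In kidney it was -2.79 after culture, at least 5.72-fold above fresh E11.5 kidney, and day 7 organoids were at least 131-fold above that kidney. Among fresh kidneys only E15.5, E17.5 and P0 were above background, and cultured kidney lay 0.70 above the highest of them.

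Tgfbi, a matrix protein named for its induction by TGF-beta, did not follow the other targets. It was 5.61, 5.72 and 5.72 in day 7 organoids, against 6.46, 6.84 and 7.05 in day 0 organoids. Day 7 organoids were lower on every array, by -1.10 ± 0.15. In kidney it was 5.89 after culture and 5.93 in fresh E11.5 kidney. Day 0 organoids alone exceeded every fresh stage, and fresh E11.5, cultured kidney, day 7 organoids and E13.5 lay within 2 SD of each other in order.

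Counted over the 9 genes, 7 were higher on every day 7 array than on any day 0 array, as were 30.4% of all genes tested, and nothing is read from this count, since it uses the arrays that led to the choice. In the fit 7 were higher and 2 lower, where 28.4% of all genes were called higher and 41.5% lower. Cultured kidney and all day 7 organoids, 4 arrays, exceeded all 5 fresh kidneys for 6 of 9 genes (Ankrd1, Ctgf, Cyr61, Thbs1, Tgfb3 and Ltbp2), as they did for 10.2% of genes above background. Of the 9 genes, 3 (Tgfbi, Tgfb2 and Tgfb3) were higher on all day 0 arrays than in every fresh kidney, as were 21% of genes above background. The difference between day 0 organoids and fresh E11.5 kidney was 0.79 for Ctgf, 0.96 for Cyr61, 0.85 for Tgfbi, 1.36 for Tgfb2 and 0.61 for Tgfb3. It was -0.64 for Thbs1 and, with 2 day 0 arrays below background, -1.96 for Ltbp2. A name that joins all 9 genes as induced by culture is not borne out for Tgfbi and Tgfb2, nor in kidney for Tgfb1.

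Whether organoids and kidney reached the same levels after 7 days was tested, since both lie on the cultured side of the choice. The 3 day 7 arrays outnumber the single kidney array on that side, so the choice could favour genes high in day 7 organoids. The p-values make no allowance for this, and nothing is read from how many of the 9 genes passed. Of the 9 genes, 7 were higher in day 7 organoids than in cultured E11.5 kidney and none was lower, where 4.52% of all 17133 genes tested were higher and 3.22% lower (limma, two-sided, Benjamini-Hochberg over all genes). Ankrd1 differed most, by 4.52 ± 0.21 (22.9-fold, adjusted p = 0.000523), higher on 3 of 3 arrays than the single kidney array. Ltbp2 was 2.99 ± 0.48 higher (7.93-fold, adjusted p = 0.0222). Thbs1 was 2.78 ± 0.21 higher (6.87-fold, adjusted p = 0.00178) and Ctgf 2.76 ± 0.24 (6.76-fold, adjusted p = 0.00302). Smaller gaps passed for Cyr61 (1.54 ± 0.24, adjusted p = 0.0183), Tgfb3 (1.26 ± 0.11, adjusted p = 0.00346) and Tgfb2 (0.83 ± 0.15, adjusted p = 0.0279). For these genes all 3 day 7 arrays lay above the kidney array. Tgfb1 was 0.89 ± 0.36 higher and Tgfbi -0.21 ± 0.22 apart, and neither passed (adjusted p = 0.172 and 0.571 by limma).

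These p-values rest on 1 kidney array, which was assumed to vary like the organoid replicates, and the kidney array and the day 7 arrays lay on different slides that only the day 0 arrays bridge. With slide as a block, Ankrd1 (4.83), Thbs1 (2.46), Ctgf (2.30), Ltbp2 (1.73) and Tgfb3 (1.12) passed, whereas Cyr61 (1.02, adjusted p = 0.101) and Tgfb2 (0.66, adjusted p = 0.239) did not. Without day 7 replicate 1, 4 of 9 genes passed, and Cyr61, Tgfb2 and Ltbp2 did not. Tgfb2 and Ltbp2 also missed the threshold without day 7 replicate 2 or 3. The other probe of Tgfb2 missed the threshold too. With normexp correction Ankrd1 differed by 3.14 and Tgfb1 passed (0.65, adjusted p = 0.048).

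**Figure D2:**
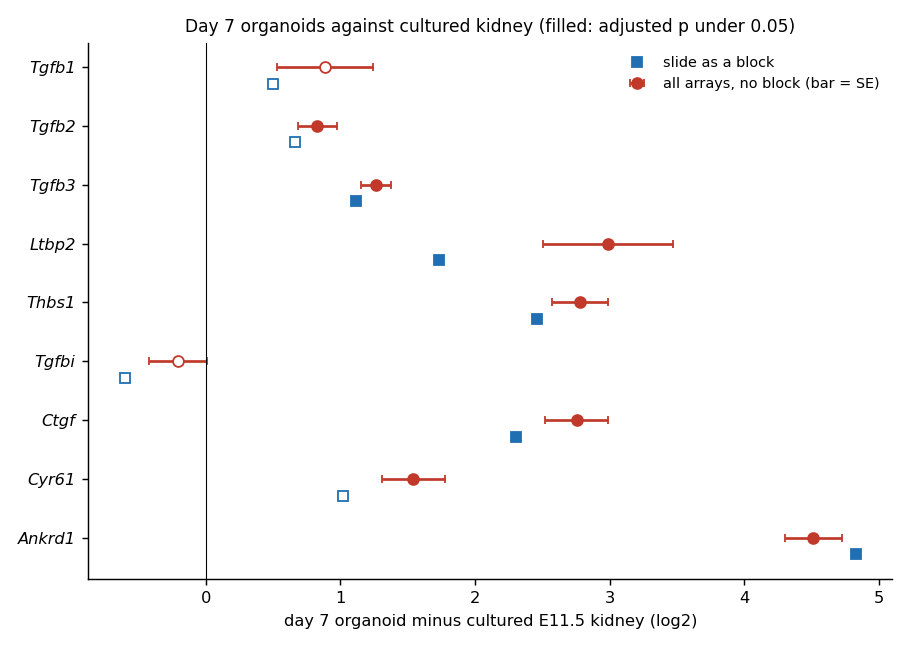
Difference in level between day 7 organoids (mean of 3 arrays) and cultured E11.5 kidney (1 array) for each gene, in log2 units. Circles are the fit without a block, with bars of 1 standard error, and squares the fit with slide as a block, filled where the adjusted p of limma was under 0.05. Ankrd1 lies farthest to the right at 4.52, and Tgfbi is the one gene left of 0.

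The changes over culture in organoids and in E11.5 kidney are set side by side with no test, because fresh kidney against cultured kidney is the contrast by which the genes were chosen. Thbs1 changed by 5.64 in organoids (day 7 minus day 0) and by 2.22 in kidney (cultured minus fresh E11.5), and Ctgf by 6.09 in organoids and 4.12 in kidney. Tgfb1 changed by 3.46 in organoids and 0.22 in kidney, while its starting level in organoids was the lower one. For Tgfb1 the gap between these changes was 3.23, and 1.35 with normexp correction. At the end of culture its levels in organoids and kidney did not differ past the threshold, as given above. Cyr61 changed by 2.62 in organoids and 2.03 in kidney, and Tgfb3 by 1.30 in organoids and 0.65 in kidney. Tgfb2 changed by -2.21 in organoids and -1.67 in kidney, and Tgfbi by -1.10 in organoids and -0.04 in kidney. For Ltbp2 and Ankrd1 no such sizes can be set side by side, since day 0 arrays of both, and the fresh E11.5 array of Ankrd1, lay below background.

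**Figure D3:**
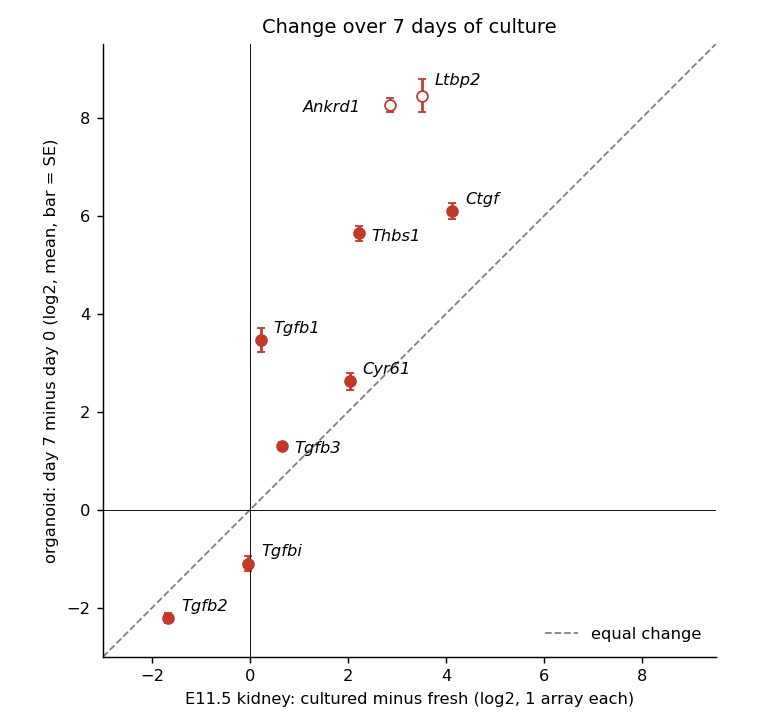
Change over 7 days of culture in organoids (vertical axis, day 7 minus day 0, mean of 3 arrays each, bar 1 standard error) against that in E11.5 kidney (horizontal axis, cultured minus fresh, 1 array each), both in log2 units. On the dashed line the changes are equal. Thbs1 lies at 5.64 and 2.22 and Tgfb1 at 3.46 and 0.22. Ankrd1 and Ltbp2 are open because 3 and 2 of their day 0 arrays were below background, so their height on the vertical axis is not known. The fresh E11.5 array of Ankrd1 was below background too, so its place on the horizontal axis is not known either.

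Development without culture was examined in the fresh kidneys alone. Across fresh kidney from E11.5 to P0, 3 of 9 genes had a rising slope and 3 a falling one, beside 12.5% and 14.7% of 19031 genes tested (limma slope per stage step, 5 arrays). Ctgf rose by 0.77 ± 0.10 per step (adjusted p = 0.0129), and its levels ran -0.33, 0.49, 1.74, 2.49 and 2.54 from E11.5 to P0. Thbs1 rose by 0.43 ± 0.10 per step (adjusted p = 0.039), with 0.32, 0.90, 1.84, 2.04 and 1.91. Cyr61 rose by 0.32 ± 0.07 (adjusted p = 0.0369), with 0.12, 0.66, 0.88, 1.51 and 1.28. For all 3 genes the increase lay at or before E17.5, and P0 was within 0.23 of E17.5.

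Tgfb2 fell by 0.48 ± 0.12 per step (adjusted p = 0.0429), with 3.34, 2.07, 1.48, 1.56 and 1.21 from E11.5 to P0. Tgfb3 had 2.70, 2.79, 2.09, 1.93 and 1.67, a slope of -0.29 ± 0.06 (adjusted p = 0.0318). Tgfbi had 5.93, 5.52, 4.80, 4.89 and 4.58, a slope of -0.33 ± 0.07 (adjusted p = 0.0303). Tgfb3 thus fell with age in fresh kidney and was high in cultured kidney and day 7 organoids. Ankrd1 had -5.64, -6.60, -4.48, -3.76 and -3.50, with a slope of 0.71 ± 0.19 that missed the threshold (adjusted p = 0.0531). The slopes of Tgfb1 (0.08) and Ltbp2 (0.08) missed it too (adjusted p = 0.41 and 0.667 by limma). With 1 array per stage these calls are fragile, because leaving out 1 stage left at most 2 genes rising and at most 1 falling. Without E17.5 or P0 only Ctgf passed.

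The remaining genes of the pathways were counted by lists that were drawn up with earlier results of these arrays known, and each list is described by its counts and median beside all genes. In day 7 against day 0 organoids, the median difference of all genes tested was -0.17, with 28.4% called higher and 41.5% lower. Genes of TGF-beta activation and latency had a median of 1.51, and of the 9 tested, 7 rose, none fell and 2 did not pass. A gene could enter through day 7 alone, as 1 of these did (Itgb6), 1 of the receptors, 2 of the YAP/TAZ signature and 2 of the Hippo genes below. Itgb6, the partner chain of an epithelial integrin that frees TGF-beta, was at least 29.4-fold higher by the bound. Its fitted difference of 5.88 fell to 1.92 in the lowest alternative. Lrrc32, which tethers latent TGF-beta to the cell surface, rose by 4.40 ± 0.14, and Nrros, a tether of myeloid cells, by 1.82 ± 0.21. Ltbp4, a latent TGF-beta binding protein, rose by 2.68 ± 0.10. Against cultured kidney, Ltbp3 was the 1 gene of the 9 tested that passed in day 7 organoids (0.49 ± 0.11 higher, adjusted p = 0.0472), and that call was lost in 6 of 16 alternatives.

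Of 5 receptor genes tested, 3 rose in day 7 against day 0 organoids, 1 fell and 1 did not pass, with a median of 1.27. The type II receptor Tgfbr2 rose by 1.27 ± 0.09, whereas the type I receptor Tgfbr1 fell by 1.15 on the log2 scale. Eng (3.46 ± 0.26) and Acvrl1 (2.92 ± 0.11), a co-receptor and a type I receptor best known from endothelium, rose. Among 6 endothelial markers 5 rose and 1, Kdr, fell, with a median of 3.41, while their summed level was 9.16 to 14.3 in day 7 organoids and 11.9 to 13.2 in day 0 organoids. The brightest probe dominates such a sum. At day 0 Kdr had a mean level of 3.57 and the other markers -4.91 to -2.97, so the sum mostly follows Kdr and does not show the course of the others. The part of endothelial cells in the receptor values was not tested. Of 7 Smad genes and regulators, 1 rose, 3 fell and 3 did not pass, with a median of -0.19. Their differences were at most 0.32 in size, as for the co-repressor Ski (-0.32 ± 0.08) and the ubiquitin ligase Smurf2 (-0.30 ± 0.07).

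TGF-beta target genes other than the 9 rose for 12 of 13 genes in day 7 against day 0 organoids and fell for 1, with a median of 1.37. Lox, which cross-links collagen, rose by 4.86 ± 0.17. Acta2 (3.89 ± 0.13) and Tagln (3.81 ± 0.16), genes of contractile fibres, rose as well. These genes are also smooth muscle genes, and 4 of 5 other smooth muscle markers rose, with a summed level of 141.9 to 179.6 in day 7 organoids and 11.6 to 13.9 in day 0 organoids. Cultured kidney had a sum of 47.5, against 10.6 to 22.5 in fresh kidney. Of 7 stromal markers, 4 rose in day 7 against day 0 organoids (Dcn by 3.72, with Lum, Col3a1 and Pdgfrb) and 3 fell (Foxd1 by -3.33, with Meox2 and Pdgfra). They summed to 160.4 to 211.1 in day 7 organoids and 83.9 to 90.1 in day 0 organoids, with 143.9 in cultured kidney and 63.8 to 91.3 in fresh kidney. The part of smooth muscle and stromal cells in the levels of the 9 genes was not tested.

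Against cultured kidney, 5 of 13 TGF-beta target genes were higher in day 7 organoids and none was lower. Tagln was 1.76 ± 0.23 higher (adjusted p = 0.0116) and Acta2 1.58 ± 0.19 (adjusted p = 0.00815), and neither passed with slide as a block. Smooth muscle markers were higher for 3 of 5 in the same comparison. The YAP/TAZ signature other than the 9 genes moved less, with a median of 0.70 in day 7 against day 0 organoids. Of its 18 genes, 13 rose, 1 fell and 4 did not pass. Nt5e, an ectonucleotidase, was at least 12.7-fold higher by the bound, and its fitted difference of 5.06 fell to 1.11 in the lowest alternative. Crim1, which binds growth factors of the BMP family, rose by 2.94 ± 0.10 and F3, tissue factor, by 2.78 ± 0.17. Myof was 1.73 ± 0.28 higher, but was below background at day 0, so the bound was 1.04-fold and normexp correction turned the sign (-0.30). Against cultured kidney Crim1 was the 1 gene of 18 that passed (0.88 ± 0.14, adjusted p = 0.0197), and not with slide as a block.

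Hippo pathway genes and TEAD factors showed no common direction at RNA level in day 7 against day 0 organoids: of 17, 6 rose, 6 fell and 5 did not pass, with a median of -0.18. The co-activators themselves, named here for their role after their values were seen, changed little. Yap1 fell by 0.22 on the log2 scale, a call that 12 of 17 alternatives did not keep, and Wwtr1, which encodes TAZ, rose by 0.44 ± 0.09. Amot, an inhibitor that binds YAP, fell by 1.43 and Tead2 fell by 0.69. Vgll3 (2.54 ± 0.19), a TEAD co-factor, and Tead4 (2.03 ± 0.33) were higher, but both were below background at day 0, with bounds of 1.66-fold and 1.46-fold. With normexp correction both turned sign (-0.16 for Vgll3 and -0.22 for Tead4). Targets of serum response factor rose for 7 of 8 genes, with a median of 0.64, led by Fhl2 (1.67 ± 0.11) and the actin-binding Tpm1 (1.56 ± 0.13). The mean of all probes of Tpm1 gave -0.32.

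Of 11 close relatives of the 9 genes, 5 were above background on all day 7 and day 0 arrays, and 4 of these rose and 1, Ankrd23, fell. Comp, Thbs4 and Nov (Ccn3) entered the test through day 7 alone, where they were higher, and 3 dim genes were not tested. The median of 3.28 over the 8 tested was 2.93 over the 5. Thbs4 was at least 17-fold and Nov at least 6.46-fold higher by the bound. Their fitted differences of 4.96 and 4.64 fell to 1.35 and 0.64 in the lowest alternatives. Thbs2 rose by 4.05 ± 0.20, Postn, a relative of Tgfbi that is also among the TGF-beta targets, by 3.63 ± 0.15, and Wisp1 (Ccn4) by 2.93 ± 0.15. Postn and Tgfbi thus differed in direction in organoid culture. Comp, a cartilage thrombospondin, was below background in cultured kidney and at least 5.77-fold higher in day 7 organoids (adjusted p = 0.00668), and Wisp1 was 1.54 ± 0.22 higher than in cultured kidney (adjusted p = 0.0149). Neither passed with slide as a block, and the fitted difference of Comp, 4.13, was 0.71 in its lowest alternative.

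**Figure D4:**
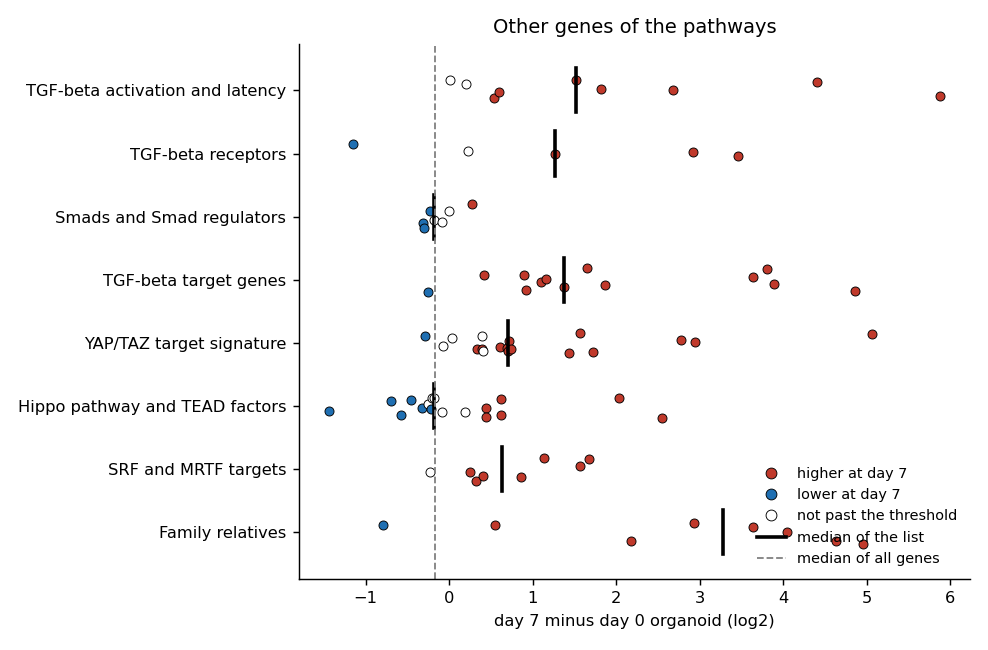
Difference in level between day 7 and day 0 organoids, in log2 units, for the other genes of 8 lists. Each circle is a gene, filled by whether limma called it higher or lower, the thick bar is the median of the list and the dashed line the median of all genes at -0.17. The list medians run between -0.19 for Smads and 3.28 for family relatives, 3 of whose 8 genes were tested only because they were above background at day 7.

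Platelets carry TGF-beta 1 and thrombospondin 1, and striated muscle expresses Ankrd1, so markers of both were set beside those genes. Markers of platelets and megakaryocytes summed to 0.864 to 1.09 in day 7 organoids and 0.782 to 2.17 in day 0 organoids, with 5.67 in cultured kidney and 4.73 to 7.29 in fresh kidney, and were thus lower on every organoid array than on any kidney array. Striated muscle markers summed to 1.096 to 2.96 in day 7 organoids and 9.34 to 11.4 in day 0 organoids, with 3.38 in cultured kidney and 0.440 to 3.08 in fresh kidney. Between day 7 and day 0 organoids, 4 of the 6 striated muscle markers tested fell, among them Actc1 (-3.73), and 1, Tnnt2, rose by 1.47 ± 0.19. Tnnt2 was 0.53 in cultured kidney, against -3.76 to -3.10 in fresh kidney. The part of muscle or platelet cells in the levels of Ankrd1, Tgfb1 and Thbs1 was not tested. All 7 nephron and ureteric markers were above background on every array, where 50.6% to 63.2% of all probes were on a single array. In day 0 organoids minus fresh E11.5 kidney (1 array) they had a median of -0.87, against 0.04 for all genes tested. They ran from -0.38 for Gata3 to -3.47 for Ret.

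Genes whose profile over the 12 arrays was most like that of the 9 genes were looked up among 19180 candidates by Pearson correlation, as a description of arrays that share slides and culture state. The collagen-binding integrin chain Itga11 (r = 0.99) and the collagen gene Col1a2 (r = 0.99) were among the 3 nearest to the mean profile. Itga11 had a level of 3.16 in day 7 organoids and -0.85 in day 0 organoids, with 0.97 in cultured kidney and -0.65 to 0.34 in fresh kidney. Singly, Ankrd1 was nearest to Itga11, Thbs1 to Tspan2 and Ltbp2 to Loxl2, a lysyl oxidase, all at r = 0.99. Ctgf was nearest to Ehbp1l1, with its own relative Wisp1 next. Cyr61 was nearest to Slc12a4, Tgfb1 to Cavin3, a gene of caveolae, and Tgfb3 to Rrbp1. Tgfbi and Tgfb2, which were lower at day 7, had other neighbours, with Ror2, a Wnt5a receptor, and Ercc5, a DNA repair nuclease, nearest.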

How the data were processed

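RNA was labelled with Cy3 and hybridised to 1-colour arrays, per the labels. The deposited scanner files give spot intensity, background-subtracted by the authors' Agilent Feature Extraction (version 11.5.1.1 per the file headers and 10.7.3.1 per the submitters' processing notes). The authors' deposited table of log2 values differed from log2 intensity by 1 constant per array and was used as an alternative. Here, 62976 spots gave 55681 probes, after control spots and outlier flags were left out and spots of a probe were averaged. Log2 intensity minus the array's 75th percentile was analysed, with no floor. Probes were named through RefSeq accession (28026), symbol (3418) or synonym (295), or kept the file's name (2036), and 21906 had none. Genes entered a fit if all arrays of some group in it had a signal well above background (1 array sufficed for the stage slope).

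limma 3.58.1 in R 4.3.3 was used, with lmFit and eBayes, two-sided, and called under an adjusted p of 0.05. Organoids were fitted alone (6 arrays), comparisons with kidney in 4 groups (8 arrays). The 9 genes and the lists were chosen with earlier results of these data known. A gene of the TGF-beta target list is not reported here and was left out of the list's counts. The text names all 9, up to 4 genes per list with the largest called difference between day 7 and day 0, and up to 2 in other comparisons. List genes that passed in the difference of the culture changes are named as well. The fits were tested on simulated data with known changes, in which kidney arrays compared with organoids varied like organoid replicates. A log2 change of 1 was called in 87% of cases between organoid groups. It was called in 59% for day 7 organoids against cultured kidney. For the difference of the culture changes it was called in 5%, and a change of 2 in 67%. Stage slopes were tried only at 4 and 6 log2 units from E11.5 to P0. Alternatives were other background correction, scaling, probe and background filters, moderation, blocks and left-out arrays. Figures were drawn with matplotlib 3.10.9. The number of arrays limits the precision.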

Additional observations from a re-analysis of the deposited data

Results flagged for a closer look

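Genes of the pathway lists other than the 9 were screened for a change over 7 days of culture that differed between organoids and E11.5 kidney, by limma's interaction contrast. Over all 18003 genes tested, 8.47% gained more in organoids and 6.85% less. On the log2 scale, Eng (3.55), Nrros (2.42), Postn (2.29), Acvrl1 (2.18), Wisp1 (1.27), Lrrc32 (1.18), Crim1 (1.01) and Ptpn14 (0.84) gained more in organoids than in kidney, with Eng below background on 1 day 0 array. Acta2 (-2.17), Tgfbr3 (-1.31), Fhl2 (-0.96), Gadd45a (-0.80) and Arhgef17 (-0.76) gained less in organoids. Snai1 (1.03), Skil (0.85) and Thbs3 (0.62) also gained more. These genes and Tgfbr3 were not followed through the alternatives. Comp (5.21), Thbs4 (4.24) and Tead4 (3.13) passed too, but were below background on day 0 arrays or in cultured kidney, so the size of their differences is not known. Tead4 missed the threshold in 3 of 14 alternatives and turned sign with normexp correction (-0.0754), and Thbs4 missed it in 8 of 14. Lrrc32 and Wisp1 missed it in 9 of 15 alternatives, and Fhl2 and Gadd45a in 6 of 15. Ptpn14 missed it in 5 of 15 and Arhgef17 in 4 of 15. Nrros and Crim1 missed it with slide as a block, and Comp with normexp correction. Starting levels differed between organoids and kidney. Day 0 organoids minus fresh E11.5 kidney was 3.74 for Acta2, 1.32 for Tgfbr3, 1.24 for Gadd45a, 0.95 for Fhl2 and 0.82 for Arhgef17. For the genes listed from Eng to Ptpn14 it lay between -3.95 (Eng) and 0.27 (Wisp1). After culture, day 7 organoids minus cultured kidney was 1.58 for Acta2 and -0.40 for Eng. No group had 4 or more arrays, so single arrays were not screened for standing apart within a group.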

How the results depend on the processing

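Between day 7 and day 0 organoids the 9 genes kept their direction and their call under every alternative that tested them. The filter to genes above background on every array left out Ankrd1 and Ltbp2. Replicate numbers did not pair the samples, since same-numbered day 0 and day 7 arrays deviated from their group means with correlations of -0.01, -0.14 and -0.01. With the replicate block, 4431 genes were higher and 6151 lower (4719 and 6901 without it), and still 7 of the 9 were higher and 2 lower. Without a background filter 10620 genes were lower.

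For day 7 organoids against cultured kidney, 774 genes were higher and 552 lower. These counts were 1806 and 1227 with normexp correction, 1390 and 359 with median scaling, 1301 and 842 with trend and robust moderation, and 128 and 84 with slide as a block. With no background filter 421 were higher. Leaving out 1 array gave 288 to 986 higher and 248 to 719 lower, with 4 to 7 of the 9 genes higher. Median scaling moved the median of all genes to 0.22, against 0.03, and the share of calls that were higher to 79.5%, against 58.4%.

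For the difference of the culture changes, 1524 genes were higher and 1234 lower, against 2695 and 5036 with normexp correction, and 735 were lower with median scaling. The share higher was 34.9% with normexp correction and 66.9% with median scaling, against 55.3%. Leaving out 1 array gave 835 to 1481 higher and 586 to 1245 lower.

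For the stage slope, 2384 genes rose and 2798 fell, 970 with median scaling, where 64.7% of calls rose, against 46.0%. Of the 9 genes, 1 fell with median scaling or quantile normalization. Leaving out 1 stage gave 420 to 2032 rising and 117 to 3544 falling, with 1 to 2 of the 9 rising and 0 to 1 falling. Uncalled slopes turned sign for Ltbp2 (-0.0135 with normexp correction, and -0.0487 without P0 to 0.336 without E11.5) and Tgfb1 (-0.0338 without E11.5 to 0.158 without P0).

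For day 0 organoids against E11.5 kidney, 2996 genes were higher and 2679 lower. There were 6615 higher with normexp correction (67.4% of calls, against 52.8%), 5555 with no background filter, and 794 higher and 1404 lower within slide 1. Ltbp2 turned to 0.0229 and Tead4 to 0.20 with normexp correction.

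Normexp correction also turned Myof (-0.30), Vgll3 (-0.16) and Tead4 (-0.22) between day 7 and day 0, and Tead4 (-0.0754) in the difference of changes, all below background at day 0. The mean of probes turned Tpm1 (-0.32). Signal over background limits Ankrd1 and Ltbp2 at day 0. Tgfb1 was above background on every array, but its difference between day 7 and day 0 also shrank with normexp correction, from 3.46 to 1.54. The lone kidney arrays limit every comparison with kidney.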

Other observations

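Development of fresh kidney moved parts of the same pathways, where 12.5% of all genes rose and 14.7% fell by the same test. From E11.5 to P0, 4 of 10 genes of TGF-beta activation and latency rose and none fell by limma's slope, with a median of 0.32 per stage step, against -0.05 for all genes. Itgb6, the integrin chain of epithelium, was below background at E11.5 and had a fitted slope of 2.07 ± 0.29 per step, and Ltbp4 rose by 0.69 ± 0.06, which no left-out stage undid. Of 5 receptor genes 3 rose and 1 fell, among them Acvrl1 (0.38 ± 0.06) and Eng (0.35 ± 0.07). Of 13 TGF-beta targets 3 rose and 3 fell, with Acta2 (1.43 ± 0.19) and Tagln (0.76 ± 0.14) first, while 4 of 5 smooth muscle markers rose as well. Of 17 YAP/TAZ signature genes 4 rose and 2 fell. Nt5e, below background at E11.5 and E13.5, rose by 1.37 ± 0.18 per step, and Dock5 fell by 0.45. Hippo pathway genes and TEAD factors fell for 4 of 16 and rose for none, led by Tead2 (-0.49 ± 0.06) and Amot (-0.31 ± 0.05), which were also lower in day 7 than in day 0 organoids. Smads and their regulators fell for 2 of 7, serum response factor targets rose for 1 of 8, the share of all genes, and family relatives for 3 of 10. Among the slopes named here, the call was lost in 5 of 13 alternatives for Eng and 4 of 13 for Tagln. It was lost in 2 of 13 each for Acvrl1, Tead2, Amot and Dock5, in 1 of 12 each for Itgb6 and Nt5e, and in none for Acta2.

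Day 0 organoids differed from fresh E11.5 kidney in both directions, with 32.9% of all genes called, 17.4% as higher. TGF-beta targets were higher for 6 of 13 and lower for 4, with Acta2 3.74 ± 0.19 and Tagln 1.65 ± 0.23 higher, and 3 of 5 smooth muscle markers were higher. Serum response factor targets were higher for 4 of 8 and lower for none. Eng was lower by -3.95 ± 0.38, Nrros by -3.45 ± 0.30 and Acvrl1 by -1.68 ± 0.16, and 5 of 6 endothelial and 5 of 6 macrophage markers were lower too. The part of these cells in the differences was not tested.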
